A study of Homo sapiens with 12 samples.

Results

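The genes described are 9 complement components and regulators, taken by symbol from the 58735 genes of the expression table: the components C3, CFB, C1R and C1S, and the regulators CFI, SERPING1, CD46, CD55 and CD59. Each symbol belonged to 1 gene identifier. RNA came from cultured HaCaT cells, an established human line of keratinocytes, the cells that build the epidermis, which divides without limit. The 4 groups of 3 libraries were Control-siRNA, cells given control siRNA alone; Control-siRNA+Mix, the same siRNA with a 24 h stimulation called Mix; PHGDH-siRNA, cells given siRNA against PHGDH; and PHGDH-siRNA+Mix, that siRNA with the same stimulation. All 12 libraries were from transfected cells, while the labels do not spell out what Mix contains, which siRNA sequences were used or whether replicates were separate cultures. The p-values therefore capture no more than library-to-library spread, which may be technical.

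Complement is a cascade of plasma and tissue proteins that marks surfaces for clearance and can pierce membranes. In the classical pathway, the recognition protein C1q carries the serine proteases C1r and C1s, encoded by C1R and C1S, and C1s cleaves the next components. Both the classical and the alternative pathway converge on cleavage of C3, and factor B, the product of CFB, supplies the protease of the alternative pathway convertase. SERPING1 encodes the inhibitor of C1r and C1s, and CFI encodes factor I, a plasma protease that inactivates cleaved C3. CD46, CD55 and CD59 sit in the cell membrane and protect the cell that carries them: CD46 is a cofactor for factor I, CD55 speeds the decay of convertases and CD59 blocks the membrane attack complex. The liver makes most complement of plasma, and epithelial cells such as keratinocytes make some of these proteins locally.

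Levels are FPKM, reads scaled to gene length and to library size, given as mean ± SD over 3 libraries. They are levels of RNA, and protein was not measured here. Changes are log2 fold changes of FPKM + 1 fitted with limma over the 14577 genes whose average reached 0.5 FPKM in some group, with the standard error (SE) and an adjusted p whose threshold was 0.05. This scale understates changes of genes with few reads. Of the 9 genes, 7 entered the test, and CFI and SERPING1 did not, because their highest group means were 0.0754 and 0.286 FPKM. Reads recovered from the values came to 16403845 to 20901128 per library.

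The siRNA target, PHGDH, an enzyme of serine synthesis, measured 36.5, 56.2 and 45.8 FPKM in Control-siRNA and 23.7, 20.1 and 16.9 FPKM in PHGDH-siRNA. With Mix the values were 31.9, 31.2 and 26.6 FPKM against 19.1, 13.3 and 11.5 FPKM. Each PHGDH-siRNA library lay below each control library of its Mix condition, but the differences did not pass limma (adjusted p = 0.128 and 0.2). The replicate 2 libraries of both PHGDH-siRNA arms stood apart from their groups: 287 genes were more than 1 log2 unit above and 326 more than 1 below the other libraries of the group in both. The same count for the replicate 2 libraries of the control arms was 4 and 4. Within the PHGDH-siRNA arms it was 72 and 50 for replicate 1 and 27 and 23 for replicate 3. Results that rest on the replicate 2 pair of the PHGDH-siRNA arms are given with and without it. All 8 keratinocyte markers examined were above 1 FPKM in group mean, with summed levels of 1314 to 1809 FPKM in Control-siRNA and 2605 to 2731 FPKM in Control-siRNA+Mix. In the PHGDH-siRNA arms the sums were 1358 to 5112 FPKM and 2387 to 5167 FPKM, the highest of each being replicate 2. Among markers of leukocytes, PTPRC, CD3D and MS4A1 were at 0 in every library, and the 9 markers together came to 0.197 to 3.12 FPKM. Of these, CD14 had group means of 1.22 to 2.27 FPKM and reached 2.83 FPKM in a library, and CSF1R reached 0.589 FPKM. Fibroblast markers (8 genes) summed to 0.565 to 2.11 FPKM and endothelial markers (5 genes) to at most 0.934 FPKM. Melanocyte markers (5 genes, TYR at 0) reached 1.21 FPKM. The hepatocyte markers ALB and APOB were at 0, while the sum of the 6 hepatocyte markers was 1.06 to 1.5 FPKM in Control-siRNA and 6.75 to 7.55 FPKM in Control-siRNA+Mix, most of it SERPINA1 (means of 1.25 and 7.15 FPKM). In the PHGDH-siRNA arms it was 0.138 to 1.67 and 1.27 to 6.57 FPKM.

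**Figure D1:**
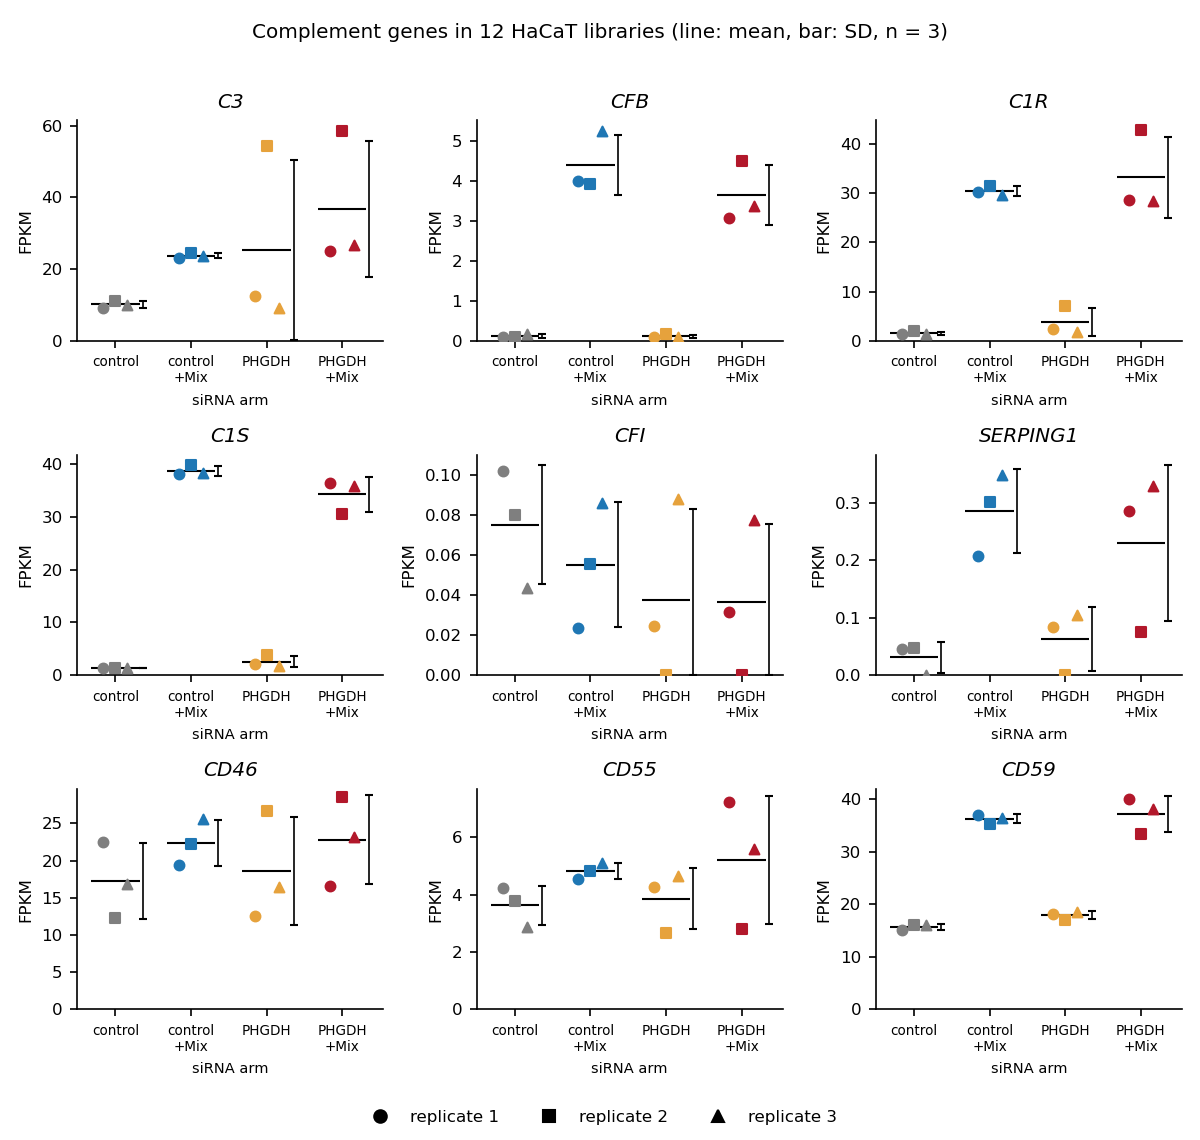
FPKM of the 9 complement genes in each library (vertical axes, linear and separate for each gene) by siRNA arm and Mix (horizontal axes). Points are libraries, with the symbol giving the replicate number, lines are means and bars are SD (n = 3, cut at 0). C1S, C1R, CFB and CD59 are higher in every library with Mix than in any without, and replicate 2 of the PHGDH-siRNA arms is the highest C3 library of its group at 54.3 and 58.7 FPKM.

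In unstimulated control cells, the membrane regulators and C3 had the highest levels of the 9 genes. Per length, CD46 (17.2 ± 5.09 FPKM) and CD59 (15.7 ± 0.569 FPKM) were at the top and overlapped in range, followed by C3 (10.1 ± 1.02 FPKM) and CD55 (3.63 ± 0.688 FPKM). C1R (1.52 ± 0.323 FPKM) and C1S (1.32 ± 0.019 FPKM) overlapped in range and lay below CD55. CFB, CFI and SERPING1 were near 0, with overlapping ranges between neighbours, at 0.109, 0.0754 and 0.0309 FPKM. In control cells with Mix the order was different: C1S came first at 38.8 ± 0.984 FPKM, then CD59 at 36.3 ± 0.858 FPKM and C1R at 30.5 ± 0.965 FPKM, with no overlap between these neighbours. C3 (23.7 ± 0.762 FPKM) and CD46 (22.4 ± 3.10 FPKM) overlapped, as did CD55 (4.82 ± 0.269 FPKM) and CFB (4.39 ± 0.75 FPKM). SERPING1 (0.286 FPKM) and CFI (0.0552 FPKM) came last. In PHGDH-siRNA the highest means were C3, CD46 and CD59, and in PHGDH-siRNA+Mix they were CD59, C3 and C1S, with overlapping ranges between neighbours in both.

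The comparison of Mix with no Mix under control siRNA asked which transcripts respond to the stimulation. C1S and C1R, transcripts of the classical pathway proteases, rose from about 1 FPKM to more than 29 FPKM. CFB rose from near 0, and CD59, which encodes a membrane regulator, rose about 2-fold. In bulk RNA, a change in the share of cells that express a gene and a change in RNA per cell cannot be told apart. These 4 genes were called higher, of 7 tested and 9 in all, where 5.62% of all tested genes were called higher. CFB reached the 0.5 FPKM needed for testing only in the groups with Mix. Once tested it could only come out higher with Mix, so its call adds no support to the count. None of the 7 was called lower, and all 7 differences were positive. Their median was 1.16, against 0.00 over all tested genes. The members were chosen with earlier results of these data known, so the count and the median are no test of the set. Without the replicate 2 pair, 5 of 7 were called higher, where 11.1% of all tested genes were.

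C1S (ENSG00000182326, hg38 chromosome 12, 6988259 to 7071032, plus strand) measured 1.30, 1.34 and 1.32 FPKM in Control-siRNA and 38.2, 39.9 and 38.3 FPKM in Control-siRNA+Mix. The groups were far apart and each was narrow. The ratio of means was 29.3 and the fitted change 4.10 (SE 0.172, adjusted p = 1.59e-07), the 21st highest of 14577 genes. C1R (ENSG00000159403, chromosome 12, 7080199 to 7092607, minus strand) lies 9166 bases from C1S. Its libraries held 1.26, 1.88 and 1.41 FPKM without Mix and 30.3, 31.5 and 29.6 FPKM with it, a 20.1-fold higher mean (3.65, SE 0.322, adjusted p = 4.4e-05). Transcripts of the partner proteases thus rose in the same 3 libraries to similar levels per length. C1S was at 1.26, 1.27 and 1.29 times C1R under Mix and 1.03, 0.713 and 0.934 times without. The annotation places 672 exonic bases of C1R (11.4%) also in C1RL and 229 of C1S (3.54%) also in EMG1, on the same strand, and the sources used here do not say how reads there were assigned.

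CFB (ENSG00000243649, chromosome 6, 31945650 to 31952084, plus strand) was barely detected without Mix. Control-siRNA libraries held 0.0888, 0.0784 and 0.159 FPKM, or 8, 7 and 15 reads, and Control-siRNA+Mix libraries held 4, 3.92 and 5.26 FPKM, or 348, 360 and 500 reads. Mean FPKM was 40.4-fold higher, and the fitted change was 2.27 (SE 0.14, adjusted p = 2.49e-06). With so few reads in the lower group the size depends on the pseudocount: it was 4.44 with 0.1 FPKM and 5.32 with voom on the reads. Of the exonic bases of CFB, 45.0% also belong to AL645922.1, an annotated gene on the same strand, which was at 0 in all libraries. Reads in those bases may have been counted for neither gene, so the level of CFB may be low for its length.

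To show where motifs of inflammatory transcription factors lie beside the genes that rose, promoter sequences were taken from RefSeq (GRCh38.p14), which held entries for 6 of the 9 genes: CFB, C1R, CFI, CD46, CD55 and CD59. The 250 bases before the start are printed for CFB and for both starts of C1R, 5′ to 3′ on the strand of the gene, with motif matches in capitals. The CFB window is chr6:31945845-31946094 and the C1R windows are chr12:7092446-7092695 and chr12:7091894-7092143.
CFB: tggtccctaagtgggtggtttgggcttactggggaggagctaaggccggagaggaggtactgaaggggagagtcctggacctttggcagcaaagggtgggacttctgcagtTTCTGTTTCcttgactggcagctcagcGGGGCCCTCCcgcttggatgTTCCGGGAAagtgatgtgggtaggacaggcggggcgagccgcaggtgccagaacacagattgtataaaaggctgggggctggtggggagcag
C1R, start 1: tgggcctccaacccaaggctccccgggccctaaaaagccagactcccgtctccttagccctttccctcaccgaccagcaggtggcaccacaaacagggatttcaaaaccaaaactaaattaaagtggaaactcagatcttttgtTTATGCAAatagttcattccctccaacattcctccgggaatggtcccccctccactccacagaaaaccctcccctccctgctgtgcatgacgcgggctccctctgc
C1R, start 2: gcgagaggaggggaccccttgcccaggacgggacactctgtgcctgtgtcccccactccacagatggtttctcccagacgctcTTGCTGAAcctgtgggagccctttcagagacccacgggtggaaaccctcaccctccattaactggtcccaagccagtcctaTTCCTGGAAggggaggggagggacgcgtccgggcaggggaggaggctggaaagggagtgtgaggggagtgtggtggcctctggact

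Motifs were searched on both strands as exact letters: TTCNNNGAA for STAT factors, which act downstream of cytokine receptors, GAAANNGAA for interferon response elements, TGANTCA for AP-1, TTGCNNAA for C/EBP, and the kappaB motif of NF-kappaB. The CFB window held 3 matches: the interferon-type motif from 139 to 131 bases before the start, a kappaB match from 112 to 103 and a STAT match from 92 to 84. Over all 35116 promoter windows, 6.88% held the interferon-type motif, 9.96% a kappaB match and 6.57% a STAT match. In C1R, start 1 had a C/EBP match from 106 to 99 bases before the start. Its start 2 had a C/EBP match from 167 to 160 and a STAT match from 86 to 78. C/EBP matches were present in 9.05% and AP-1 matches in 6.57% of all windows. CD59 has 4 annotated starts: the first pair of windows overlaps and holds a single STAT site, and of the others 1 holds 2 C/EBP matches and 1 holds 2 AP-1 matches. The windows of CFI, CD46 and CD55 held 0 matches. The share of all windows with no match to any of these motifs was not counted, so this makes no contrast with the genes that rose. C1S, C3 and SERPING1 had no promoter entry. The matches describe letters in short windows, and no binding was measured.

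The central component C3 (ENSG00000125730, chromosome 19, 6677704 to 6730562, minus strand) measured 9.17, 11.2 and 9.98 FPKM in Control-siRNA and 23, 24.5 and 23.6 FPKM in Control-siRNA+Mix. Every library with Mix lay above every library without, and the mean was 2.34 times as high. Such separation of 3 libraries from 3 gives an exact permutation p of 0.1, and its share over all tested genes was not counted. The difference of 1.16 (SE 0.522) did not pass limma (adjusted p = 0.224) in the fit over 12 libraries, in which the spread of the PHGDH-siRNA groups enters the error. It passed without the replicate 2 pair of the PHGDH-siRNA arms (SE 0.116, adjusted p = 0.000156) and in a fit of the control groups alone (adjusted p = 0.000539).

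CD59 (ENSG00000085063, chromosome 11, 33703010 to 33736491, minus strand) measured 15.1, 16 and 16.1 FPKM in Control-siRNA and 37.1, 35.4 and 36.4 FPKM in Control-siRNA+Mix. Both groups were tight, and the mean rose 2.31-fold (1.16, SE 0.102, adjusted p = 4.12e-05). The other membrane regulators lie 365252 bases apart on chromosome 1, both on the plus strand. CD55 (ENSG00000196352) spans 207321376 to 207386804 and CD46 (ENSG00000117335) spans 207752057 to 207795513. CD55 measured 4.22, 3.79 and 2.88 FPKM without Mix and 4.55, 4.82 and 5.09 FPKM with it. Its groups did not overlap but lay close, and the difference was not called (0.34, SE 0.262, 95% interval -0.24 to 0.92, adjusted p = 0.526). As for C3, the share of such separation over all tested genes was not counted. CD46 measured 22.5, 12.3 and 16.9 FPKM without Mix and 19.4, 22.2 and 25.5 FPKM with it, overlapping groups (0.39, SE 0.287, 95% interval -0.25 to 1.02, adjusted p = 0.505).

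Transcripts of the soluble inhibitors were close to the limit of detection. SERPING1 (ENSG00000149131, chromosome 11, 57597387 to 57614853, plus strand) had 3, 3 and 0 reads in Control-siRNA and 13, 20 and 24 reads in Control-siRNA+Mix. Its reads were more numerous in each Mix library, yet the level stayed at or below 0.35 FPKM, and without the filter on low values the difference was 0.32 (SE 0.0895, adjusted p = 0.112). CFI (ENSG00000205403, chromosome 4, 109740694 to 109802179, minus strand) had 9, 7 and 4 reads without Mix and 2, 5 and 8 with it, and no difference was detectable at this depth (-0.03, adjusted p = 0.881 without the filter). AC126283.2, at 0 in all libraries, shares 32% of the exonic bases of CFI.

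**Figure D2:**
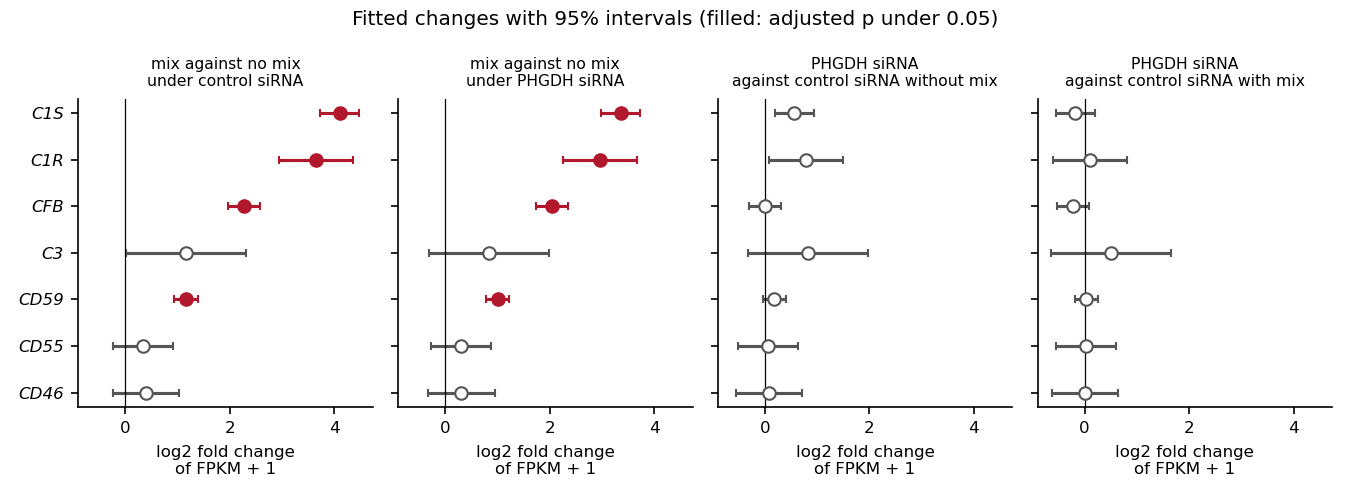
Fitted log2 fold changes of FPKM + 1 (horizontal axis) for the 7 tested complement genes (vertical axis) in 4 comparisons of 3 against 3 libraries. Bars are 95% intervals from limma and filled points have an adjusted p under 0.05. The filled points are C1S, C1R, CFB and CD59 in both Mix comparisons, from 1.01 to 4.10, and no point is filled in the siRNA comparisons. The fit shown has no replicate block.

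The same comparison under PHGDH siRNA asked how knockdown cells respond to Mix. Again C1S, C1R, CFB and CD59 rose, so 4 of 7 were higher where 5.22% of all tested genes were. Here too CFB was tested only because of its level with Mix. Same-numbered libraries of these arms deviated together, and with the replicate number as a block in these arms 5 of 7 were called higher, the fifth being C3, where 12.1% of all tested genes were. All 7 differences were positive, with a median of 1.01 against 0 over all tested genes. The choice of members with earlier results known limits these counts and this median as well. Without the replicate 2 pair 5 of 7 were called higher, where 8.26% of all tested genes were. C1S measured 2.09, 3.73 and 1.77 FPKM in PHGDH-siRNA and 36.5, 30.5 and 35.8 FPKM in PHGDH-siRNA+Mix. Its groups were far apart, with a 13.5-fold higher mean (3.36, SE 0.172, adjusted p = 1.13e-06). C1R measured 2.46, 7.13 and 1.84 FPKM and then 28.6, 42.8 and 28.5 FPKM, an 8.74-fold rise of the mean (2.97, SE 0.322, adjusted p = 0.00025). Without the replicate 2 pair the ratio of means was 13.3 for C1R and 18.7 for C1S, and without PHGDH-siRNA replicate 2 alone it was 15.5 and 17.8. Replicate 2 held the highest C1R value of both groups, while for C1S it was the highest without Mix and the lowest with it.

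CFB was again near 0 without Mix, at 0.0967, 0.156 and 0.0859 FPKM (8, 15 and 8 reads). With Mix it was at 3.08, 4.50 and 3.38 FPKM (299, 416 and 312 reads). The mean was 32.3-fold higher (2.05, SE 0.14, adjusted p = 9.47e-06), and the fitted size was 4.14 with a pseudocount of 0.1 FPKM and 4.97 with voom. CD59 rose from 18.2, 17.1 and 18.6 FPKM to 40.1, 33.3 and 38.2 FPKM, a 2.07-fold higher mean (1.01, SE 0.102, adjusted p = 0.000151). CD59 RNA therefore stood at nearly the same level in both siRNA arms with Mix, 37.2 ± 3.49 FPKM under PHGDH siRNA and 36.3 ± 0.858 FPKM under control siRNA.

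For C3, PHGDH-siRNA measured 12.5, 54.3 and 9.20 FPKM and PHGDH-siRNA+Mix 25.1, 58.7 and 26.7 FPKM. The value with Mix was the higher in 3 of 3 same-numbered pairs, while the groups overlapped because the unstimulated replicate 2 exceeded Mix replicates 1 and 3. The difference of 0.84 was not called without the pairing (SE 0.522, adjusted p = 0.398) and was called with the replicate block in these arms (SE 0.2, adjusted p = 0.0161). Without the replicate 2 pair it was 1.20 (SE 0.142, adjusted p = 0.00063, ratio of means 2.39 against 1.46 with all libraries), close to the 1.16 of the control arm, and without PHGDH-siRNA replicate 2 alone it was 1.58 (adjusted p = 0.00877). CD55 measured 4.26, 2.65 and 4.67 FPKM without Mix and 7.23, 2.80 and 5.58 FPKM with it (0.31, adjusted p = 0.558). CD46 measured 12.5, 26.7 and 16.5 FPKM and then 16.6, 28.5 and 23.2 FPKM (0.31, adjusted p = 0.592). In each of CD46 and CD55 the Mix library was above the unstimulated library of the same number, but the groups overlapped and neither was called with the replicate block (adjusted p = 0.143 for CD55 and 0.273 for CD46). SERPING1 had 5, 0 and 7 reads without Mix and 20, 5 and 22 with it, and CFI had 2, 0 and 8 and then 3, 0 and 7.

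**Figure D3:**
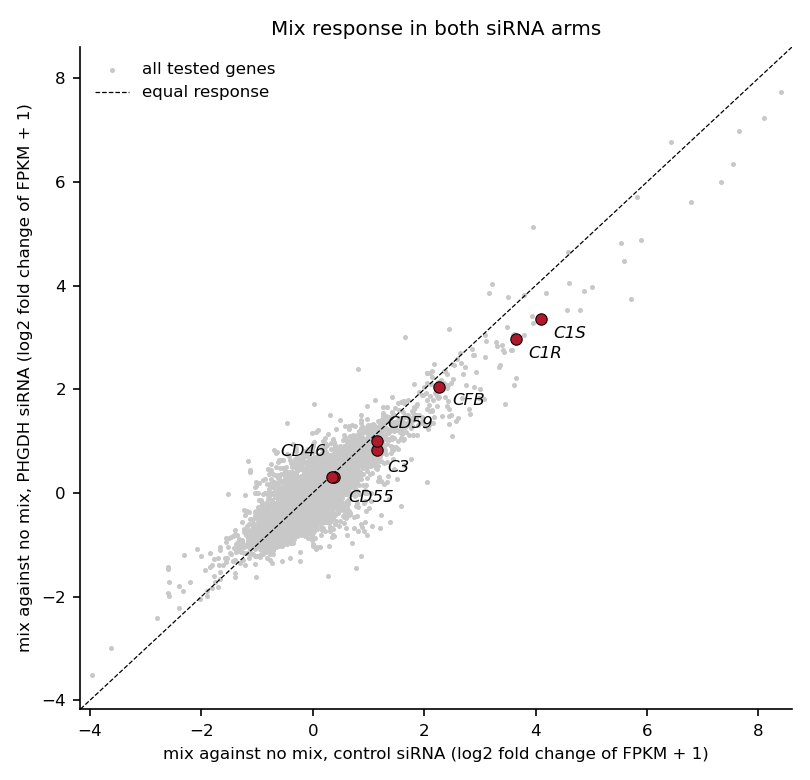
Change with Mix under control siRNA (horizontal axis) and under PHGDH siRNA (vertical axis), both as log2 fold change of FPKM + 1, for 14577 tested genes (grey) and the 7 tested complement genes (red). The dashed line marks equal change. C1S and C1R lie to the upper right and below the line, at 4.10 and 3.65 under control siRNA against 3.36 and 2.97 under PHGDH siRNA.

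The interaction, the amount by which the Mix change in knockdown cells exceeded that in control cells, asked whether knockdown alters the response of these genes. No complement gene was called, nor was any of the 14577 genes (0% called, with 250 genes at a raw p under 0.05). C1S had the largest difference among the tested members, -0.74 (SE 0.244, 95% interval -1.28 to -0.20, limma adjusted p = 1). It was the only member with a raw p under 0.05 in that fit. For C1R the difference was -0.68 (95% interval -1.69 to 0.32). CFB (-0.22, interval -0.66 to 0.21) and CD59 (-0.15, interval -0.47 to 0.17) were closer to 0. For C3 the interval ran from -1.95 to 1.31, too wide to bound an effect, and the value changed sign, from -0.32 to 0.04, without the replicate 2 pair. Without that pair C1S stood at -0.43 (SE 0.117, adjusted p = 0.759) and C1R at -0.42 (SE 0.176, adjusted p = 1). With the replicate block in the PHGDH-siRNA arms the adjusted p was 0.956 for C1S and 1 for C1R. The raw limma p of C1R was 0.0429 without the pair and 0.015 with the block, and that of C1S 0.00503 and 0.00935. A raw p under 0.05 was held by 601 of 14507 genes without the pair and 561 of 14577 with the block.

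PHGDH siRNA against control siRNA without Mix asked whether knockdown alone changes complement transcripts. None of the 7 tested genes was called, with 0.0412% of all tested genes called. C1R and C1S had a raw limma p under 0.05, beside 935 of all 14577 tested genes. C1S lay higher in every PHGDH-siRNA library (1.77 to 3.73 FPKM) than in any Control-siRNA library (1.30 to 1.34 FPKM), a ratio of means of 1.92 (0.57, SE 0.172, adjusted p = 0.49). For C1R the ratio of means was 2.51 with overlapping groups (0.78, SE 0.322, adjusted p = 0.731). Replicate 2 was the high library for both genes, and without the replicate 2 pair the differences were 0.33 for C1S (adjusted p = 0.125) and 0.32 for C1R (adjusted p = 0.326). C3 averaged 25.3 ± 25.1 FPKM against 10.1 ± 1.02 FPKM (0.83, adjusted p = 0.931), and with replicate 2 of PHGDH-siRNA left out of the mean it was 10.8 FPKM. Its difference was 0.08 (adjusted p = 0.854) without the pair. CD59 was slightly higher without overlap, 18 ± 0.806 against 15.7 ± 0.569 FPKM (0.18, 95% interval -0.04 to 0.41, adjusted p = 0.884). Complete separation of 3 libraries from 3, as for C1S and CD59, gives an exact permutation p of 0.1. Its share over all tested genes was not counted, so it is no sign of a knockdown effect by itself. With all libraries, CFB (0.01, interval -0.30 to 0.31), CD46 (0.08, interval -0.56 to 0.71) and CD55 (0.06, interval -0.52 to 0.63) gave differences near 0. Without the replicate 2 pair, CD59 was at 0.22 (95% interval 0.03 to 0.40, limma adjusted p = 0.312). In that fit CD55 was at 0.25 (interval -0.08 to 0.58), CD46 at -0.21 (interval -0.76 to 0.34) and CFB at -0.02.

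With Mix, the same siRNA comparison called 0 of the 7 genes, against 0.0206% of all tested genes. None of the 7 had a raw limma p under 0.05, which 834 of all 14577 tested genes had. C1S was lower in each PHGDH-siRNA+Mix library than in any Control-siRNA+Mix library, at 34.3 ± 3.3 against 38.8 ± 0.984 FPKM (-0.18, 95% interval -0.56 to 0.20, adjusted p = 0.979). C3 was higher without overlap, at 36.8 ± 18.9 against 23.7 ± 0.762 FPKM (0.51, interval -0.64 to 1.66, adjusted p = 0.979), and its difference was 0.12 without the replicate 2 pair. For C1S and C3 the separation again gives an exact permutation p of 0.1, and its share over all tested genes was not counted. CFB measured 3.65 ± 0.749 against 4.39 ± 0.75 FPKM (-0.22, interval -0.52 to 0.09). C1R (0.10), CD46 (0.00), CD55 (0.02) and CD59 (0.03) differed little in the fit, with intervals of -0.61 to 0.81, -0.63 to 0.63, -0.55 to 0.60 and -0.19 to 0.26. Changes of 1 log2 unit in either direction thus lay outside the intervals of these 4 genes. Without the replicate 2 pair, CD55 stood at 0.34 (95% interval 0.01 to 0.67) and CFB at -0.34 (interval -0.62 to -0.07). Neither was called (limma adjusted p = 0.408 and 0.294). Their raw limma p was 0.0436 and 0.0199, and 1679 of 14507 genes had one under 0.05. In that fit C1R was at -0.09, C1S at -0.10, CD46 at -0.17 and CD59 at 0.11.

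**Figure D4:**
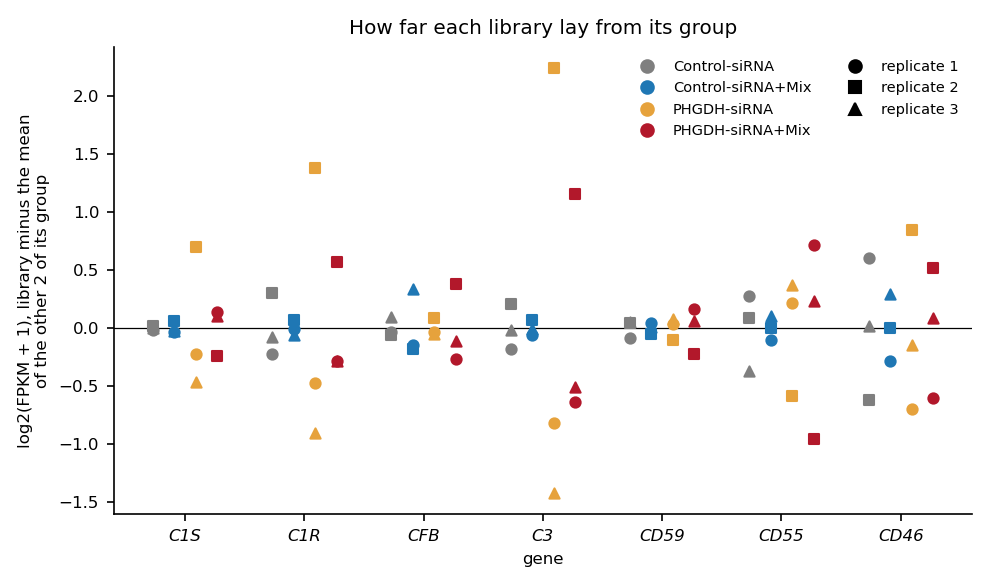
Difference of each library from the mean of the other 2 libraries of its group, in log2(FPKM + 1) (vertical axis), for the 7 tested complement genes (horizontal axis). Colours are groups and symbols are replicate numbers. PHGDH-siRNA replicate 2 is at 2.24 for C3 and 1.37 for C1R, and PHGDH-siRNA+Mix replicate 2 is at 1.15 for C3 and -0.95 for CD55.

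In the replicate 2 pair of the PHGDH-siRNA arms, some complement genes were high and others low. C3 was 2.24 log2 units above the other libraries in PHGDH-siRNA replicate 2, the 39th highest of 14577 genes, and 1.15 above in PHGDH-siRNA+Mix replicate 2. C1R (1.37 and 0.57) and CD46 (0.85 and 0.52) were above in both libraries as well. CD55 was below in both (-0.58 and -0.95), as was CD59 by a small amount (-0.10 and -0.23). C1S was above in the unstimulated library (0.69) and below in the one with Mix (-0.24), and CFB was at 0.08 and 0.38. SERPING1 had 0 and 5 reads and CFI 0 reads in both libraries. These libraries also had the highest keratinocyte marker sums, 5112 and 5167 FPKM, whose part in the complement values was not tested.

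Other complement genes were examined as a list of 51 symbols covering the recognition, terminal, regulatory and receptor arms. All 51 were in the table, 18 were at 0 in every library, and 9 entered the test. The 42 untested genes, which included C2, C4A and C4B, did not exceed 0.638 FPKM in any library. C4A and C4B are near-identical copies, so reads between them are uncertain. The C1q chain genes C1QA, C1QB and C1QC were at 0 in every library, in which C1R and C1S reached 42.8 and 39.9 FPKM. These 6 untested genes are named after their values were seen.

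Among the 9 tested, Mix under control siRNA raised C1RL and lowered CLU and C5, with a list median of 0.27 against 0.00 over all tested genes. These counts, 1 higher and 2 lower of 9, stand beside 5.62% and 3.92% of all tested genes. This list too was chosen with earlier results of these data known. C1RL, a protease related to C1R and overlapping it in the annotation, rose from 5.36, 6.39 and 6.20 FPKM to 14.4, 15.1 and 16.4 FPKM (1.22, SE 0.178, adjusted p = 0.00141). CLU, which encodes clusterin, a chaperone that also inhibits the membrane attack complex, fell from 25.4, 33.1 and 26.2 FPKM to 5.16, 5.42 and 3.77 FPKM. Its groups were far apart, with a 5.90-fold lower mean (-2.34, SE 0.282, adjusted p = 0.000406), the 11th lowest change of 14577 genes. The fluid-phase inhibitor CLU and the membrane inhibitor CD59 thus changed in opposite directions with Mix. C5, the precursor of the terminal pathway, fell from 1.24, 0.659 and 0.81 FPKM to 0.237, 0.341 and 0.257 FPKM (-0.56, SE 0.146, adjusted p = 0.0351). C5 averaged 0.5 FPKM or more only in the groups without Mix, so once tested it could only come out lower.

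Under PHGDH siRNA, Mix raised C1RL from 6.14 ± 2.13 to 15.2 ± 1.59 FPKM (1.22, adjusted p = 0.00184) and lowered CLU from 27.1 ± 4.43 to 7.09 ± 3.89 FPKM (-1.89, adjusted p = 0.00206). That is 1 higher and 1 lower of 9, beside 5.22% and 3.64% of all tested genes. Replicate 2 held the highest CLU value with Mix (libraries at 5.76, 11.5 and 4.05 FPKM). CLU changed by -2.17 without the replicate 2 pair (limma adjusted p = 0.000229), beside -2.34 under control siRNA. C5 was at 0.52 ± 0.21 and 0.147 ± 0.0334 FPKM and was not called (-0.40, adjusted p = 0.131). Without the replicate 2 pair, C5AR1, a receptor for the C5a fragment, was called lower under control siRNA (-0.44, adjusted p = 0.0423), where 9.7% of all tested genes were; with all libraries it was not called (adjusted p = 0.113). No gene of this list was called in the siRNA comparisons or the interaction. With the replicate block in the PHGDH-siRNA arms, 2 of the 9 were called lower with Mix, where 10.4% of all tested genes were: CLU and C1QBP (-0.45, adjusted p = 0.0487), a mitochondrial protein that can bind C1q, which was not called without the block (adjusted p = 0.384). CFD, CALR and C3AR1 were called in none of these fits.

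**Figure D5:**
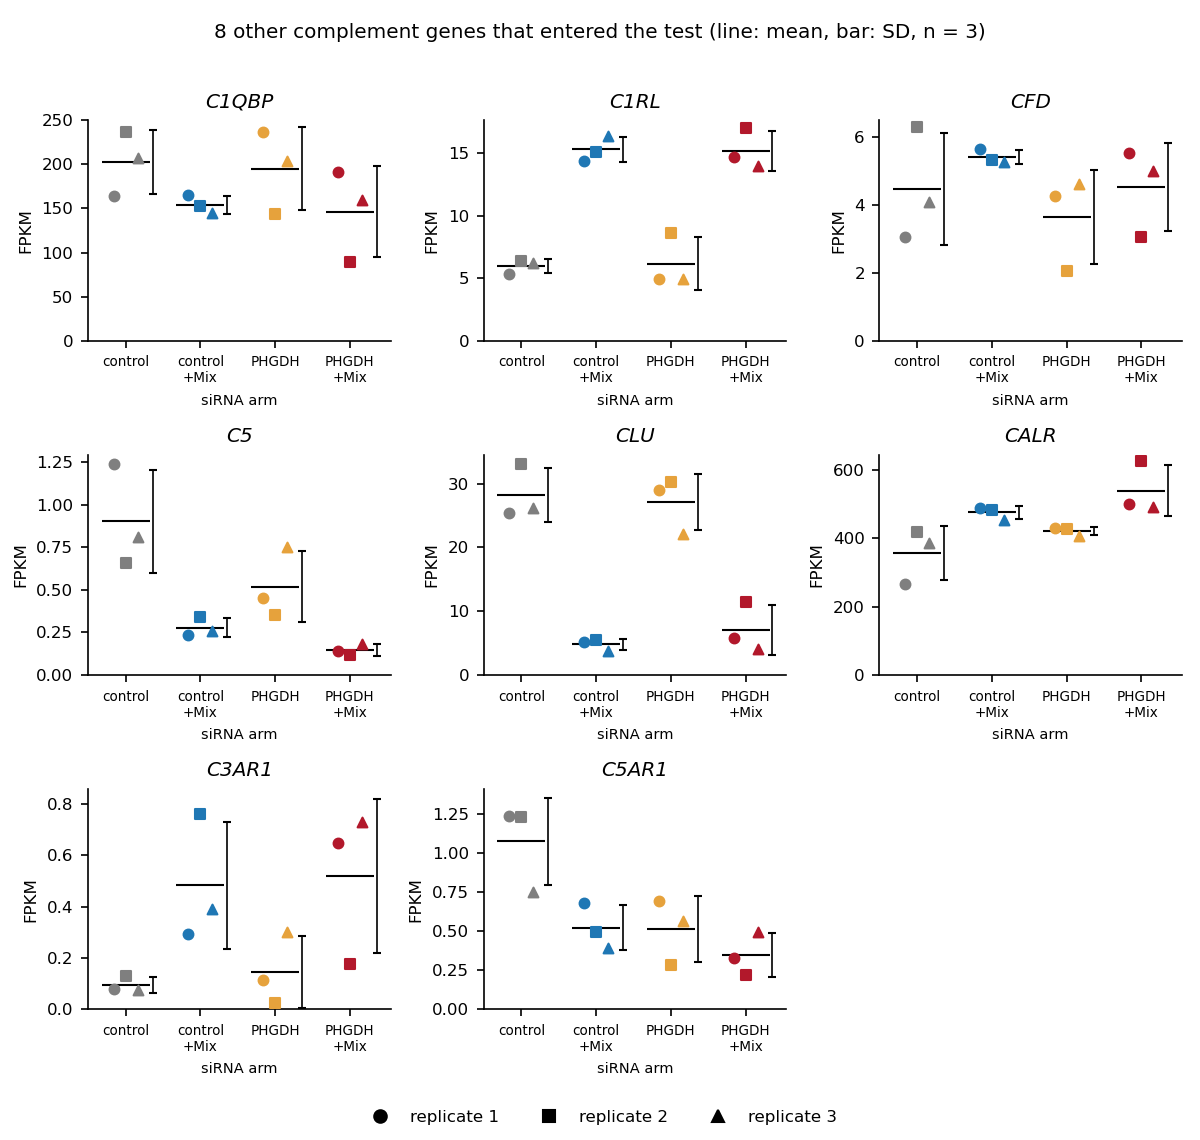
FPKM of 8 other complement genes that entered the test, by siRNA arm and Mix (horizontal axes), with separate linear vertical axes. Points are libraries with symbols for replicate numbers, lines are means and bars are SD (n = 3, cut at 0). CLU is lower and C1RL higher in every library with Mix than in any without in the same arm.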

How the data were processed

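The authors deposited linear FPKM for 58735 genes, a column per library, a unit inferred here from the numbers themselves. Software and build, per the submitters' processing notes, were featureCounts 1.5.0-p3, HISAT2 2.0.5, CASAVA and hg38; no settings, such as strand, are given in the sources used here. FPKM times gene length gave whole reads in each library (100% of values up to 200 reads within 0.05). The median ratio of a library to the geometric mean over genes was 1.01 in all 12, so the deposited values carry a scaling of that kind. All identifiers were in GENCODE 29, from which overlaps were read.

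The gene with the highest mean FPKM was taken for each symbol. One limma 3.58.1 model (R 4.3.3, trend and robust options) of log2(FPKM + 1), with a mean per group and 8 residual degrees of freedom, covered genes averaging at least 0.5 FPKM in some group. P-values were two-sided and adjusted by Benjamini-Hochberg over all genes of each of 5 comparisons. With 3 libraries against 3, no exact permutation p can be smaller than 0.1. The fit was tested on simulated reads drawn from the Control-siRNA means. Those reads held no deviation of replicate 2 libraries, so the simulation cannot bear on results that depend on that pair.

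Members and lists were chosen with earlier results of these data known. Named genes were the 9 members, PHGDH, each listed complement gene past the threshold and, for each member called, the 3 genes correlating best with it; other listed genes are named by count or chosen after their values were seen. Some genes that the rule or the lists hold are not reported here. Same-numbered libraries were checked for pairing by correlating deviations from group means: 5 of 18 pairs exceeded 0.1, including all 3 between the PHGDH-siRNA arms (0.69, 0.775 and 0.459), so numbers were taken as pairs in those arms only, and a fit with the replicate number as a block within them was added. The deviation shared by the replicate 2 libraries also raises the correlations of the other numbers, since deviations within a group sum to 0.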

Additional observations from a re-analysis of the deposited data

How the results depend on the processing

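The number of complement genes called did not move by more than 1.5 times under any alternative: it was 4 with a replicate block over all 12 libraries in each Mix comparison, 5 with the replicate block in the PHGDH-siRNA arms only, 4 or 5 in the others and 0 in the siRNA comparisons and the interaction, in limma and in voom alike. The block within the PHGDH-siRNA arms, added after the data were seen, called C3 with Mix in those arms (adjusted p = 0.0161) and changed no other member's call; it raised the genes called there from 1291 to 3284. The block over all libraries changed no member's call. C1S, C1R, CFB and CD59 kept their calls in all 15 alternatives under control siRNA and all 16 under PHGDH siRNA, with adjusted p of at most 0.0303. C3, the fifth where 5 were called, crossed the threshold in 2 of 15 and 3 of 16. Of 574 values of single genes, 535 kept direction and side, 5 gained a call (C3 each time), 0 lost one and 34 changed sign, none of them called before or after. Without the replicate 2 pair, the sign changes were CFB -0.0221 and CD46 -0.207 for siRNA without Mix, C1R -0.0911 and CD46 -0.171 with Mix, and C3 0.0424, CD46 0.0355 and CD55 0.0911 for the interaction. Scaling to total reads, added after the data were seen, gave CD46 -0.00254 for siRNA with Mix. Leaving out 1 library at a time, siRNA without Mix ran from -0.0221 to 0.0381 for CFB, -0.207 to 0.309 for CD46 and -0.0683 to 0.25 for CD55. With Mix it ran from -0.0911 to 0.195 for C1R, -0.171 to 0.201 for CD46, -0.217 to 0.341 for CD55 and -0.0227 to 0.107 for CD59. For the interaction it ran from -0.794 to 0.426 for C3, -0.307 to 0.208 for CD46 and -0.272 to 0.285 for CD55. The cause was not tested. Rescaling by the median ratio left every value as it was. Depth limits SERPING1 and CFI, with at most 24 reads in a library, and CFB without Mix.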

Other observations

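The genes whose levels most resembled those of the called complement genes over the 12 libraries were sought among 10784 tested genes averaging at least 1 FPKM, by Pearson correlation of log2(FPKM + 1). The libraries fall into those with and without Mix, so these values mostly describe that contrast, and any gene with a large change would score high. For CFB the closest were ST5 (0.997), SOD2, the mitochondrial superoxide dismutase (0.996), and S100A8, an antimicrobial calcium-binding protein (0.993). C1R was closest to CYP27B1, which makes active vitamin D (0.995) and SGK1, a kinase (0.993). C1S was closest to SQOR, a mitochondrial sulfide oxidising enzyme (0.997) and CTSC, the protease cathepsin C (0.995). CD59 was closest to ARNT2, a transcription factor (0.996), LYN, a kinase (0.994), and TFPI2, a protease inhibitor (0.993). Between members, C1S correlated with C1R at 0.985 and with CD59 at 0.986, while C3 and CD55 gave -0.175.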
